A study of Mus musculus with 48 samples.

Results

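Expression of 10 adipocyte genes was followed in the thoracic aorta of male and female mice given β-aminopropionitrile (BAPN), an inhibitor of the lysyl oxidase enzymes that cross-link collagen and elastin in the arterial wall. The 10 genes were taken by symbol from the 18782 genes of the count table, as a measure of the white fat that surrounds the vessel. They comprised 4 adipokine genes (Adipoq, Lep, Cfd and Retn), 3 genes of the lipid droplet and its breakdown (Plin1, Lipe and Pnpla2) and 3 genes of fatty acid supply (Fabp4, Cd36 and Lpl). All 10 were listed, and all 10 were among the 14431 genes that passed the filter on low counts.

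RNA was sequenced from 48 wild-type C57BL/6J mice, with 1 library per animal and a strand-specific bulk protocol. Control mice drank normal water and made up the MaCon (male, n = 10) and FeCon (female, n = 10) groups. The other mice drank water with 0.4% BAPN. In all groups, controls included, the period was 28 days from 3 weeks of age. BAPN-treated mice without an aortic lesion detectable under the microscope formed MaNonAD (n = 4) and FeNonAD (n = 8), and treated mice with dissection or aneurysm formed MaAAD (n = 7) and FeAAD (n = 9). The NonAD and AAD groups therefore differ by outcome and not by treatment, and they hold mice that lived to the end of the induction. The thoracic aorta was removed after perfusion with saline, from the ascending part through the arch to the proximal descending part, and the methods name its diseased segments as the source of the RNA. How segments of aortas with no lesion were chosen is not stated there, and the amount of fat left on the vessel is not given in the sources used here. Library totals ran from 13548003 to 17281262 counts, so counting error was small for all of the genes except Lep, whose lowest count was 8.

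White adipocytes store triglyceride in a single large droplet, release fatty acids from it on demand and secrete hormones, the adipokines. The fat around the mouse thoracic aorta is largely brown in type: it also holds many small droplets and burns fatty acids for heat through Ucp1. Most of the 10 genes are active in both kinds of fat, and Fabp4, Cd36 and Lpl are also used by macrophages or endothelial cells, whereas Lep and Retn are more typical of white fat.

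The promoter letters of 3 members are shown because Adipoq and Plin1 kept step with each other across the libraries while Lep was the member that differed most between groups. The sequences are the 250 bases before the RefSeq start of each gene (assembly GRCm38.p6, which is not the GRCm39 build of the counts), printed 5′ to 3′ on the strand of the gene, and capitals mark letters that match the C/EBP pattern TTNNGNAA on either strand. C/EBP factors are regulators of fat cell formation. Adipoq lies on the plus strand (chr16:23146286-23146535), Lep on the plus strand (chr6:29059971-29060220) and Plin1 on the minus strand (chr7:79732777-79733026).
Adipoq: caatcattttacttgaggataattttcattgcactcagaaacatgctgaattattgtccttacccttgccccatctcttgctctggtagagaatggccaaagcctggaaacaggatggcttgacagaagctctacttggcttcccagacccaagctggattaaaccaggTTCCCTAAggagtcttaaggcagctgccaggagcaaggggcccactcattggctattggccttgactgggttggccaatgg
Lep: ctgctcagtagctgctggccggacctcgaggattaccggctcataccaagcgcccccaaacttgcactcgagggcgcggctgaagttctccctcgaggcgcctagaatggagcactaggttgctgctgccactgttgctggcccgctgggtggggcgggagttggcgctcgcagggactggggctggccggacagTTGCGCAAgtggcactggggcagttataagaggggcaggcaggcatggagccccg
Plin1: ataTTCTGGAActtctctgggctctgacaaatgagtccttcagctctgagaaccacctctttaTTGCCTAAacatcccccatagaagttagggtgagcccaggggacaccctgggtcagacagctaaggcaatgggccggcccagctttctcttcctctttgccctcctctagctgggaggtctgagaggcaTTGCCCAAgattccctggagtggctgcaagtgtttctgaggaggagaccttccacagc

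The match in Lep begins 55 bases before the start, that in Adipoq 81 bases before it, and Plin1 has 3 matches, the nearest at 58 bases. The pattern is common, since 36.8% of 32851 RefSeq promoters of the same length held it. A second pattern, the PPAR half-site AGGTCA on either strand, stood in 14.0% of all promoters and, among the members, in that of Cd36 alone. RefSeq gave a promoter for 8 of the 10 members, all but Fabp4 and Lpl.

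Every member had counts in every library, and the levels differed widely between mice of the same group. To compare genes with each other, CPM (library-scaled counts) were divided by transcript length and brought to the same total in every library, which gives TPM. On the TPM scale, over 48 libraries, the median level was highest for Fabp4, the fatty acid binding protein of fat cells, at 1991 TPM. Cfd, the complement factor adipsin, followed at 1377, and Pnpla2, the lipase that opens triglyceride breakdown, at 534. Lpl, the lipase that frees fatty acids from circulating lipoproteins, stood at 298 on this scale and Adipoq, the hormone adiponectin, at 282. The remaining members were lower, from 157 for the fatty acid carrier Cd36 through 123 for Lipe and 74.8 for Plin1 to 40.7 for Retn. Lep, which encodes leptin, was lowest at 4.57.

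Brown fat genes were present in every library as well, so the 10 genes cannot be read as a measure of white fat alone. Ucp1 had a median of 487 TPM, above Adipoq on the same scale. The summed level of the 12 brown adipocyte markers, none of which was at 0 in all libraries of a group, ranged from 389 to 2573 CPM in MaCon and from 600 to 2273 in FeCon. In the BAPN-treated groups it ranged from 958 to 2799 in MaNonAD, 161 to 3149 in MaAAD, 367 to 2078 in FeNonAD and 230 to 1775 in FeAAD.

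The 10 genes together took 0.116% of the scaled counts in the library with the least, MaAAD3, and 1.20% in the library with the most, MaAAD1. For single genes, the highest of the 48 libraries exceeded the lowest by 9.15 times for Lipe, the hormone-sensitive lipase, and by 99.0 times for Lep. The SD of log2(CPM + 1) within groups was 0.709 to 0.902 for the members, with a median of 0.798, against a median of 0.276 over all tested genes. That spread placed each member between the 97.2 and 99.1 percentiles of the tested genes. Because these are bulk samples, fewer fat cells and less RNA per fat cell cannot be told apart.

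**Figure D1:**
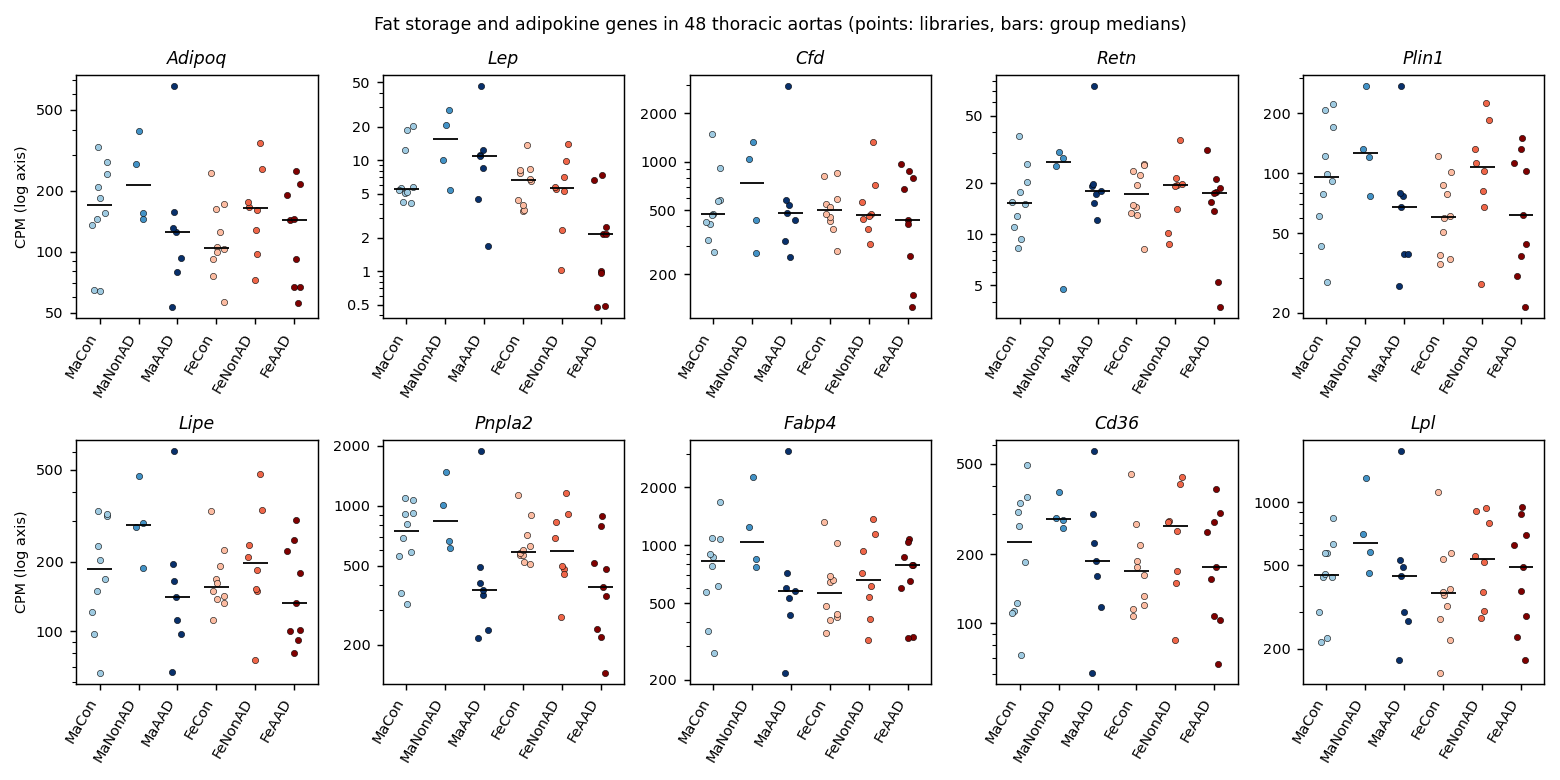
Level of each of the 10 genes in CPM on a log axis, with 1 point per library (n = 10, 4, 7, 10, 8 and 9 from left to right) and a bar at the group median. Groups overlap in every panel. MaAAD1 is the top point of MaAAD in every panel, and the FeAAD points for Lep lie between 0.473 and 7.30 CPM.

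Library MaAAD1 stood apart before any comparison was made. It was the highest MaAAD library for 10 of 10 members and the highest of all 48 libraries for 9 of them, the exception being Plin1, whose highest value was in MaNonAD2 (276 CPM against 273 in MaAAD1). Its summed brown adipocyte markers were also the highest of the 48, at 3149 CPM, and its 8 smooth muscle markers summed to the lowest, at 11829 CPM, where MaCon libraries ranged from 27843 to 60199. The values of the members, the counts of the gene lists and the mean ratios to Adipoq in MaAAD against MaCon are therefore also given without it, while levels of single genes are with all 7 MaAAD libraries.

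Adipoq, a hormone of mature fat cells that acts on insulin sensitivity, overlapped between all groups. In FeCon its lowest, median and highest levels were 56.7, 104 and 243 CPM, in FeNonAD 72.3, 163 and 344, and in FeAAD 55.9, 143 and 251. In MaCon they were 64.3, 170 and 326 CPM, and in MaAAD 53.2, 125 and 659. The 4 MaNonAD libraries read 155, 393, 269 and 145 CPM. The second highest MaAAD library had 158 CPM, less than the MaCon median, so the upper end of MaAAD was 1 library. The log2 fold change of Adipoq was 0.15 for FeAAD vs FeCon and 0.04 for MaAAD vs MaCon, and neither passed the test. Without MaAAD1 the male value was -0.74 (edgeR adjusted p = 0.0976).

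Lep was the 1 member called in any comparison of groups with all libraries in. A gene counted as called when edgeR's adjusted p was below 0.05 and the log2 fold change was 1 or more in size. The hormone leptin reports the size of fat stores to the brain, and it is made in proportion to fat cell size. The 10 FeCon libraries held 7.61, 3.51, 6.46, 6.78, 13.8, 3.58, 8.19, 4.34, 8.28 and 3.93 CPM. The 9 FeAAD libraries held 6.60, 2.14, 2.17, 7.30, 0.473, 2.52, 0.998, 0.969 and 0.483 CPM. All FeAAD libraries except FeAAD1 and FeAAD4 lay below the lowest FeCon library, and those 2 lay near the FeCon median of 6.62 CPM, so the groups overlapped. Lep was lower in FeAAD than in FeCon by edgeR's quasi-likelihood test (mean 2.63 ± 2.57 against 6.64 ± 3.13 CPM, SD; log2 fold change -1.33, SE 0.50, adjusted p = 0.0264). It was the 1 member of 10 called in that comparison, in which 12.7% of all tested genes were called and 2.78% were called lower. The call was lost when any of 4 libraries was left out: FeCon5 (-1.14, adjusted p = 0.0669), FeAAD5 (-1.19, 0.0563), FeAAD7 (-1.21, 0.0551) or FeAAD9 (-1.19, 0.0528, all edgeR). In those fits 12.4%, 10.9%, 12.4% and 12.3% of the tested genes were called. Genes of other cells also differed in this comparison. Red blood cell markers were called higher, 5 of 5, with a median log2 fold change of 3.62 and summed levels of 143 to 703 CPM in FeCon and 235 to 26910 CPM in FeAAD, the highest in FeAAD2. Heart muscle markers were called lower, 5 of 10, with a median of -1.25 and summed levels of 66.9 to 771 CPM in FeCon and 43.9 to 146 CPM in FeAAD. Macrophage markers were called higher, 9 of 9 (median 2.17), as were 3 of 7 fibroblast markers (median -0.01), and 4 of 8 smooth muscle markers were called lower (median -1.01). Of the lymph node B and T cell markers 2 of 3 tested were called higher (median 2.35), at summed levels of 0.567 to 3.23 CPM in FeCon and 1.11 to 20.1 CPM in FeAAD. Of the mesothelium markers 1 of 4 (median -0.82) and of the skeletal muscle markers 1 of 5 (median -0.91) were called lower, and of the endothelial markers 0 of 8 were called (median 0.02). No marker of these lists was at 0 in all libraries of a group, and the part of these cells in the Lep result was not tested. Without FeAAD2 the value of Lep was -1.29 (edgeR adjusted p = 0.0445).

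FeNonAD libraries held Lep at 1.02 to 14.0 CPM with a median of 5.63, overlapping both other female groups. FeAAD against FeNonAD gave a log2 fold change of -1.27 (SE 0.52, edgeR adjusted p = 0.0803), short of the threshold with all libraries. Lep passed when FeNonAD8 (-1.43, adjusted p = 0.0414), FeAAD1 (-1.56, 0.0374) or FeAAD4 (-1.63, 0.0234) was left out, in edgeR fits that called 8.19%, 7.13% and 7.81% of the tested genes. Against FeCon, FeNonAD differed by -0.07 with a 95% interval from -1.03 to 0.90.

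In males the order of Lep was different. MaCon ranged from 4.08 to 20.3 CPM with a median of 5.49. The 4 MaNonAD libraries read 28.5, 20.6, 10.1 and 5.34 CPM, and the 7 MaAAD libraries read 46.8, 8.56, 4.42, 12.2, 11.1, 10.9 and 1.69 CPM. Of the 7 MaAAD libraries 5 were above the MaCon median, with MaAAD1 far above the rest and MaAAD7 below all MaCon libraries. The log2 fold change was 0.66 for MaAAD vs MaCon (95% interval -0.31 to 1.63, edgeR adjusted p = 0.311) and 0.90 for MaNonAD vs MaCon (-0.23 to 2.03, adjusted p = 0.574). Without MaAAD1 the first of these was -0.07.

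Set directly against each other, MaAAD had more Lep than FeAAD by a log2 fold change of 2.38 (SE 0.53), which narrowly missed the threshold in edgeR (adjusted p = 0.0532) and passed it in DESeq2 (2.40, adjusted p = 0.0101). Only 0.0693% of the tested genes were called in this comparison by edgeR and 0.0532% by DESeq2. Leaving out MaAAD3, MaAAD7, FeAAD1 or FeAAD4 brought the edgeR value to 2.58, 2.57, 2.72 and 2.74, with adjusted p = 0.0305, 0.0136, 0.0186 and 0.0136, where 0.0624%, 0.0625%, 0.0693% and 0.0763% of the tested genes were called. Leaving out MaAAD1 brought it to 1.63 with an edgeR adjusted p of 1.00. The control groups did not pass the test (MaCon vs FeCon 0.38, 95% interval -0.52 to 1.29, edgeR adjusted p = 0.613). The test of the difference between the sexes in the AAD response gave 1.99 (SE 0.70, unadjusted p = 0.00653, edgeR adjusted p = 0.132), and that for the NonAD response gave 0.97 (SE 0.76, adjusted p = 0.700). Neither difference passed the test.

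Cfd and Retn, the other adipokine genes, did not differ in any comparison by the test. Cfd, a serine protease of the alternative complement pathway, had group medians of 438 CPM (FeAAD) to 740 CPM (MaNonAD), and single libraries from 125 CPM in FeAAD9 to 2979 CPM in MaAAD1. Retn, which encodes resistin, had medians of 15.2 CPM (MaCon) to 26.5 CPM (MaNonAD) and single libraries from 3.71 CPM in FeAAD3 to 75.0 CPM in MaAAD1.

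The droplet and lipolysis genes gave medians that were lowest in the AAD group of each sex for Pnpla2 and Lipe. Pnpla2 read 510, 589 and 1133 CPM (lowest, median and highest) in FeCon, 277, 593 and 1159 in FeNonAD, and 145, 389 and 887 in FeAAD. In males it read 323, 748 and 1099 CPM in MaCon and 216, 378 and 1889 in MaAAD, and the 4 MaNonAD libraries held 663, 1484, 1010 and 616 CPM. All MaAAD libraries but MaAAD1 were at or below 490 CPM, under every MaNonAD library. The log2 fold change of Pnpla2 was -0.59 for FeAAD vs FeCon (95% interval -1.23 to 0.05, edgeR adjusted p = 0.139) and -0.37 for MaAAD vs MaCon (-1.05 to 0.32, adjusted p = 0.437).

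Plin1, the protein that coats the droplet and holds the lipases back, had medians of 95.8 CPM in MaCon and 67.6 CPM in MaAAD, and of 60.6 CPM in FeCon, 107 CPM in FeNonAD and 61.8 CPM in FeAAD. Its largest value in a comparison with controls was 0.80 for FeNonAD vs FeCon, with a 95% interval from -0.00 to 1.60 and an edgeR adjusted p of 0.187. Lipe had medians of 186 CPM in MaCon, 289 in MaNonAD and 140 in MaAAD, and of 156 in FeCon, 197 in FeNonAD and 133 in FeAAD. None of these differences passed the test.

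Among the fatty acid genes, Fabp4 medians ran from 561 CPM (FeCon) to 1044 CPM (MaNonAD), Cd36 medians from 170 CPM (FeCon) to 286 CPM (MaNonAD), and Lpl medians from 368 CPM (FeCon) to 644 CPM (MaNonAD). The lowest median was in FeCon and the highest in MaNonAD for all 3 genes. The 9 macrophage markers were higher by the test in AAD than in control aortas in both sexes (9 of 9 in each, summed level 202 to 529 CPM in MaCon and 816 to 3701 in MaAAD, 246 to 581 in FeCon and 601 to 5574 in FeAAD). Fabp4, Cd36 and Lpl had log2 fold changes of 0.16, 0.06 and 0.28 for FeAAD vs FeCon and 0.10, -0.03 and 0.27 for MaAAD vs MaCon, none past the test. Without MaAAD1 the male values were -0.66, -0.42 and -0.33 (edgeR adjusted p = 0.120, 0.411 and 0.500), and all 9 macrophage markers were still called higher. The share that macrophages gave to these 3 genes was not tested.

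Across the set, no member was called in any of the other comparisons by edgeR. The unadjusted p was under 0.05 for 1 member, Lep, in FeAAD vs FeCon, FeAAD vs FeNonAD, MaNonAD vs FeNonAD, MaAAD vs FeAAD and the sex difference in the AAD response, and for 0 members in the rest. The share of all tested genes called was 2.75% for FeNonAD vs FeCon, 7.04% for FeAAD vs FeNonAD, 0.478% for MaNonAD vs MaCon, 11.4% for MaAAD vs MaCon and 0.353% for MaAAD vs MaNonAD. Between the sexes it was 1.51% in controls and 0.0485% in NonAD, and the 2 sex differences in response reached 0.298% for NonAD and 0.52% for AAD. No member had groups that did not overlap in any of the 9 pairwise comparisons, against shares of all tested genes of 0.741% for FeNonAD vs FeCon, 4.89% for FeAAD vs FeCon, 0.229% for FeAAD vs FeNonAD, 1.26% for MaNonAD vs MaCon, 8.91% for MaAAD vs MaCon and 4.04% for MaAAD vs MaNonAD. Between the sexes those shares were 0.152% in controls, 0.762% in NonAD and 0.0624% in AAD.

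The medians of the 10 log2 fold changes were 0.01 for FeAAD vs FeCon and 0.07 for MaAAD vs MaCon, against 0.00 and -0.03 over all tested genes. With 1 library left out, the female median ran from -0.14 (without FeAAD4, 3 of 10 members above 0) to 0.17 (without FeCon8, 7 of 10 above 0). The male median ran from -0.53 (without MaAAD1, 0 of 10 above 0) to 0.31 (without MaAAD3, 8 of 10 above 0), with 0.23 without MaCon6. For FeNonAD vs FeCon the median was 0.30, with 8 of 10 members above 0. It was 0.09 without FeNonAD3, with 6 of 10 above 0, 0.19 without FeNonAD5 and 0.47 without FeCon8. For MaNonAD vs MaCon it was 0.42, with 10 of 10 above 0, and it fell to 0.22 without MaNonAD2 and reached 0.67 without MaNonAD4. From NonAD to AAD the median in females was -0.35, with 0 of 10 members above 0, but -0.18 with 2 of 10 above 0 once FeNonAD3 was left out, and -0.23 with 1 of 10 above 0 without FeNonAD5. In males it was -0.41, with 2 of 10 above 0, and leaving out 1 library took it from -1.12 (without MaAAD1, 0 of 10 above 0) to -0.08 (without MaNonAD2), with -0.22 without MaAAD3. The size of each of these medians therefore rests on single libraries. The members move together within a library, so these counts describe the libraries and do not count as 10 separate observations.

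**Figure D2:**
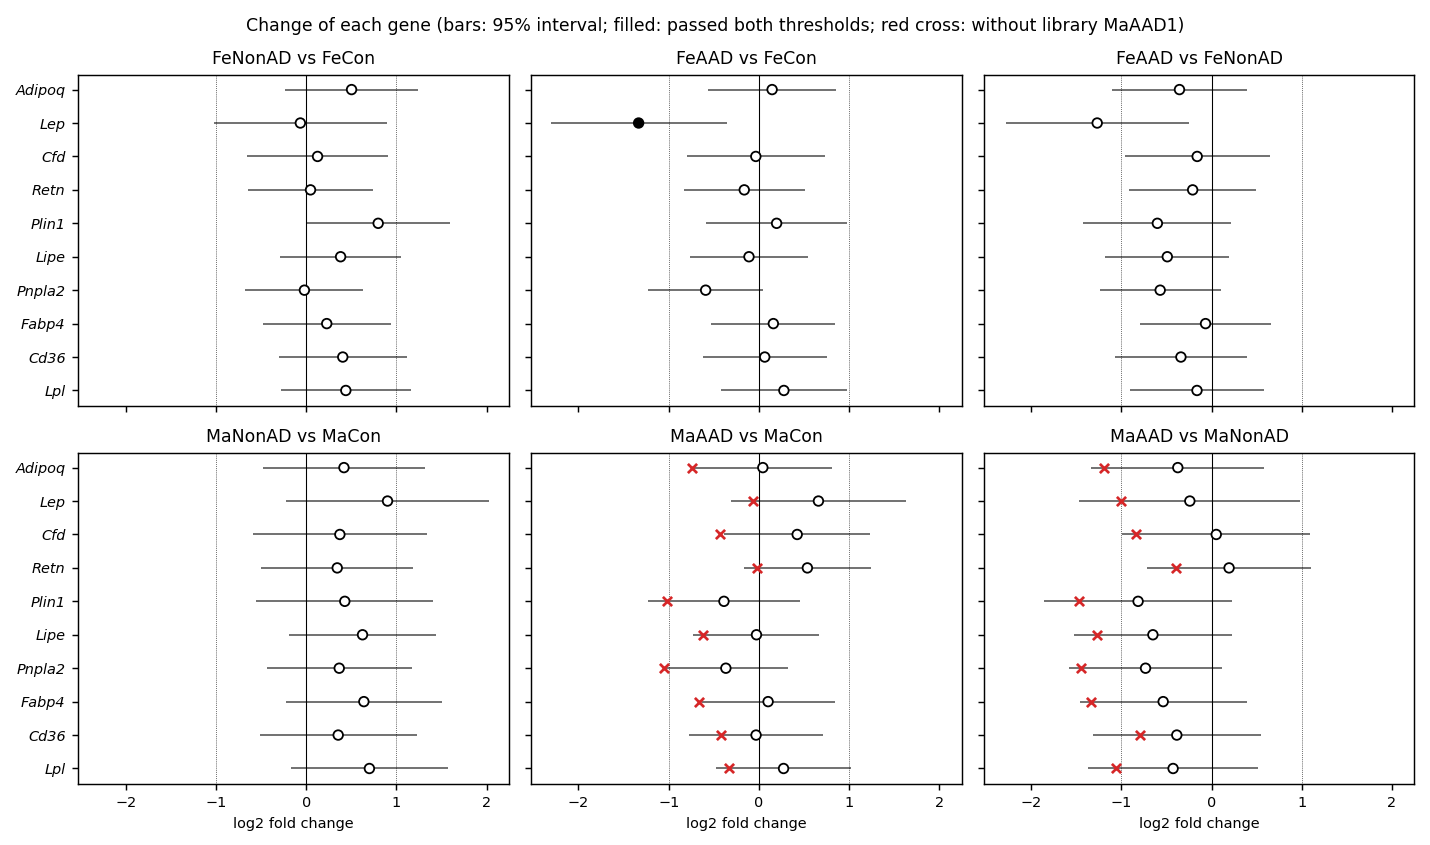
Log2 fold change of each gene in the 6 comparisons within a sex, with bars for the 95% interval. Filled circles were called, which is Lep in FeAAD vs FeCon alone, and red crosses give the value without MaAAD1, which lies to the left of the circle for every gene in both MaAAD panels.

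Leaving out MaAAD1 moved all 10 male values down. That direction was fixed in advance, since MaAAD1 was the highest MaAAD library for 10 of 10 members. The library was singled out from these same values and its leave-out was not planned. The calls below therefore show how far the results rest on 1 library and are not separate evidence of a decrease. For MaAAD vs MaCon they then ran from -1.06 (Pnpla2) to -0.02 (Retn), and Pnpla2 was called lower (edgeR adjusted p = 0.00724). In that fit 12.2% of the 14413 tested genes were called in either direction, 417 of them lower. For MaAAD vs MaNonAD they ran from -1.47 (Plin1) to -0.40 (Retn). There 3 members were called lower, Pnpla2 (-1.45, adjusted p = 0.0157), Fabp4 (-1.33, 0.0330) and Lipe (-1.27, 0.0387). Of the tested genes 4.94% were called in either direction in place of 0.353%, and 216 of 14413 were called lower. Plin1 missed the threshold in both (-1.02, adjusted p = 0.0542, and -1.47, 0.0533). With MaAAD1 in, the same edgeR comparisons called none of these genes.

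The members varied together from mouse to mouse, a measure that is not part of the rule by which they were taken by symbol. Over 48 libraries, the deviations from the group means on the log2(CPM + 1) scale had a Pearson r between 0.441 (Retn and Cd36) and 0.960 (Plin1 and Lipe) for the 45 pairs, with a median of 0.803. In the 20 control libraries r ran from 0.066 (Lep and Lpl) to 0.959 (Adipoq and Plin1). The mean r with the other 9 members was 0.831 for Adipoq, 0.830 for Plin1 and 0.835 for Lipe, but 0.578 for Lep and 0.566 for Retn. The 2 values of a point come from the same library, so they share its depth and its piece of tissue.

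The brown fat genes Ucp1 and Cidea also varied with most of the members. Of the brown adipocyte markers, r with the members was computed for Ucp1, Cidea and Cox8b only, so it does not describe the whole list. Dio2, another of these markers, read 66.3 CPM in MaAAD1 and 98.2 CPM in MaAAD3, the libraries with the most and the least Adipoq (659 and 53.2 CPM). Within groups, Ucp1 had r = 0.812 with Adipoq and 0.900 with Pnpla2, and Cidea, a droplet protein of brown fat, had 0.813 and 0.944. The 3 adipokine genes other than Adipoq followed Ucp1 and Cidea less closely, with r = 0.541 and 0.595 for Cfd, 0.559 and 0.639 for Lep, and 0.327 and 0.392 for Retn. The macrophage gene Adgre1 had r between -0.11 (Lep and Pnpla2) and 0.28 (Retn) with the members. The smooth muscle gene Myh11 had r = -0.731 with Adipoq over the 20 control libraries and -0.371 within all groups. With the other members the within-group r ran from -0.462 (Cfd) to 0.054 (Lep), and it was -0.089 for Plin1 and -0.074 for Pnpla2. Over the control libraries r with Myh11 ran from -0.763 (Lpl) to -0.292 (Retn) for the members other than Lep, which had 0.125.

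**Figure D3:**
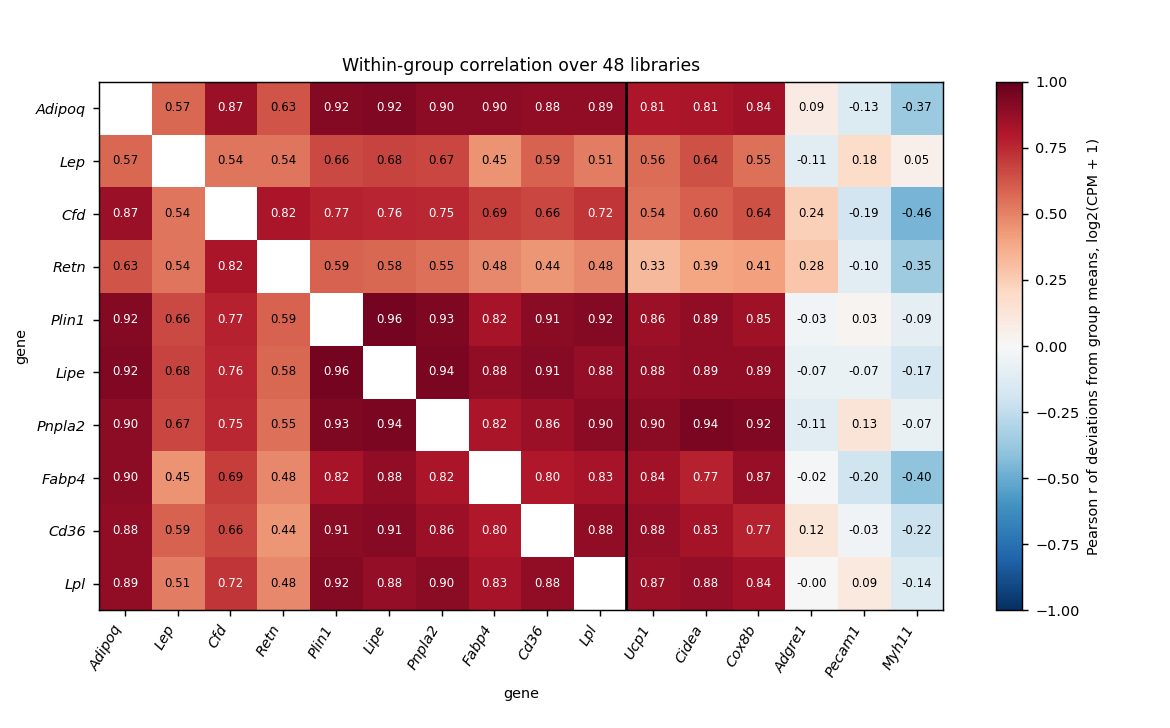
Pearson r between genes over 48 libraries, after the group mean was taken from each log2(CPM + 1) value. The 10 members are in the rows and left columns, and brown fat (Ucp1, Cidea, Cox8b), macrophage (Adgre1), endothelial (Pecam1) and smooth muscle (Myh11) genes are to the right of the line. Lep and Retn have the palest member rows.

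By Pearson r over log2(CPM + 1) in 48 libraries, the genes most like Adipoq among 13228 candidates were Plaat3 (0.970), a phospholipase of fat cells, Car3 (0.951), a carbonic anhydrase abundant in fat and muscle, Tcim (0.940), Gstz1 (0.934) and Cebpa (0.930), a regulator of fat cell formation. Those most like Lpl were Cat (0.947), which encodes catalase, Car3 (0.926), Scp2 (0.925), Cidec (0.918), a droplet protein, and Ces1f (0.909). Lep had no such close partner, its nearest being Tmem45b (0.757), Slc1a5 (0.724), A530016L24Rik (0.722), Ptger3 (0.711) and Adora1 (0.707).

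The ratio of each gene to Adipoq within a library was also described, a scale chosen after the values were seen and given without a test. Such a ratio moves with either gene, and it does not measure the amount of fat. For Plin1 the groups lay close together, with mean log2 ratios of -0.76 ± 0.30 in MaCon, -1.02 ± 0.24 in MaAAD, -0.88 ± 0.20 in FeCon and -0.92 ± 0.60 in FeAAD (SD). For Lep it was -4.47 ± 0.87 in MaCon, -4.05 ± 1.09 in MaNonAD and -3.88 ± 0.87 in MaAAD. Without MaAAD1 the MaAAD ratios were -0.97 ± 0.23 for Plin1 and -3.89 ± 0.95 for Lep. In females it was -4.23 ± 1.01 in FeCon, -4.98 ± 0.70 in FeNonAD and -6.13 ± 1.17 in FeAAD. FeAAD ran from -8.24 (FeAAD5) to -4.86 (FeAAD1) and FeCon from -5.81 to -3.06, so the female groups still overlapped on this scale.

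Pnpla2 and Cidea had lower mean ratios to Adipoq in AAD than in control aortas of both sexes. The log2 ratio of Pnpla2 was 2.51 ± 0.37 in FeCon, 1.95 ± 0.24 in FeNonAD and 1.68 ± 0.57 in FeAAD, and 2.09 ± 0.22 in MaCon, 2.00 ± 0.10 in MaNonAD and 1.70 ± 0.32 in MaAAD (1.74 ± 0.34 without MaAAD1). Cidea read 0.97 ± 0.23 in MaCon, 0.85 ± 0.26 in MaNonAD and -0.42 ± 0.86 in MaAAD (-0.55 ± 0.85 without MaAAD1), where all 7 libraries, MaAAD1 included, were at or below 0.39 and all MaCon libraries at or above 0.60. In females Cidea read 1.02 ± 0.43 in FeCon and -0.05 ± 1.14 in FeAAD, with overlap. No member was without overlap with its controls on this scale in either sex, and Cidea was the 1 of 11 tested brown markers without overlap between MaAAD and MaCon, against 0.0277% of all tested genes that were lower without overlap. Between MaAAD and MaNonAD 5 of the 11 were lower without overlap (Ucp1, Cidea, Elovl3, Cpt1b and Kcnk3), against 0.125% of all tested genes. Both shares come from dividing every gene by Adipoq. For a gene that does not vary with Adipoq, the ratio carries the spread of Adipoq itself, so its groups seldom separate. The shares are thus not a like yardstick for fat genes, and no conclusion is drawn from them.

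**Figure D4:**
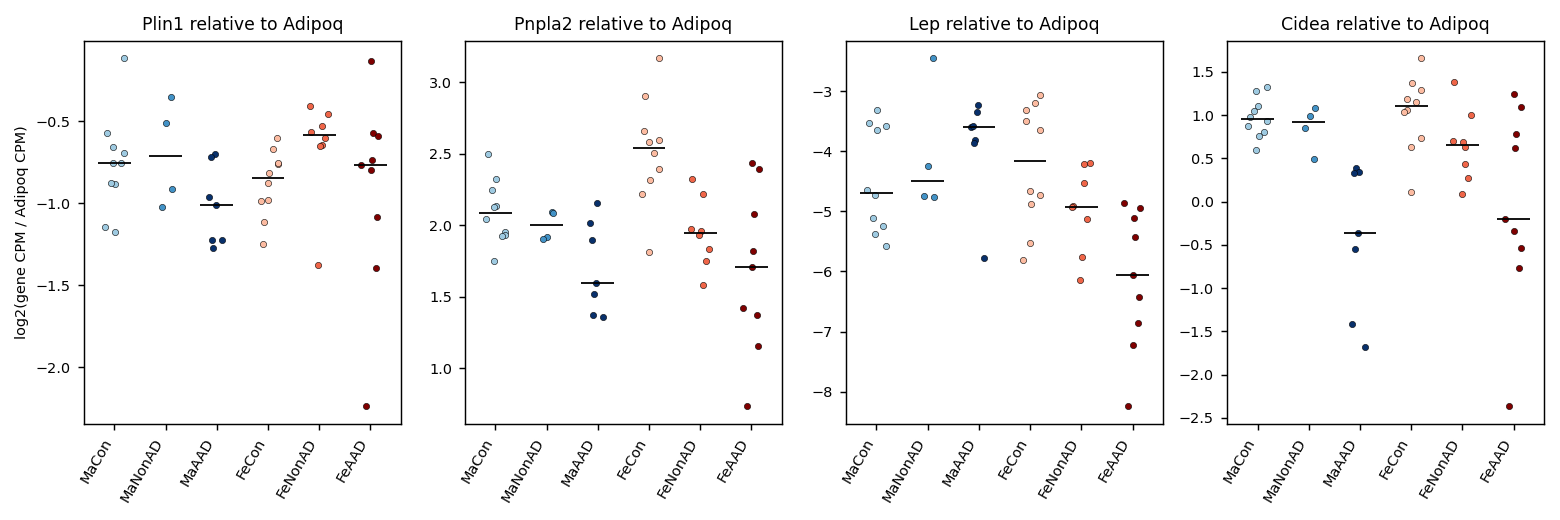
Log2 ratio of Plin1, Pnpla2, Lep and Cidea to Adipoq in each library, with bars at the group medians. MaAAD lies wholly below MaCon for Cidea, and FeAAD has the lowest median for Lep.

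As levels, the brown markers passed the test in no comparison with controls while all libraries were in. Of 11 tested brown markers 0 were called in FeAAD vs FeCon (median log2 fold change -0.31), in MaAAD vs MaCon (-0.57), in FeNonAD vs FeCon (0.35) or in MaNonAD vs MaCon (0.42), where 12.7%, 11.4%, 2.75% and 0.478% of all tested genes were called. Without MaAAD1 the median for MaAAD vs MaCon was -1.26 and 7 of the 11 were called lower. In that fit 12.2% of the 14413 tested genes were called in either direction, 417 of them lower. Among them were Ucp1 (-2.02, edgeR adjusted p = 0.00462), Cidea (-2.03, 0.00126) and Cox8b, a respiratory chain subunit (-2.01, 0.000298). The ratios to Adipoq in MaAAD rest on levels that overlapped with all libraries in, with Cidea at 20.0, 101 and 864 CPM (lowest, median and highest) in MaAAD and 109, 348 and 693 CPM in MaCon.

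**Figure D5:**
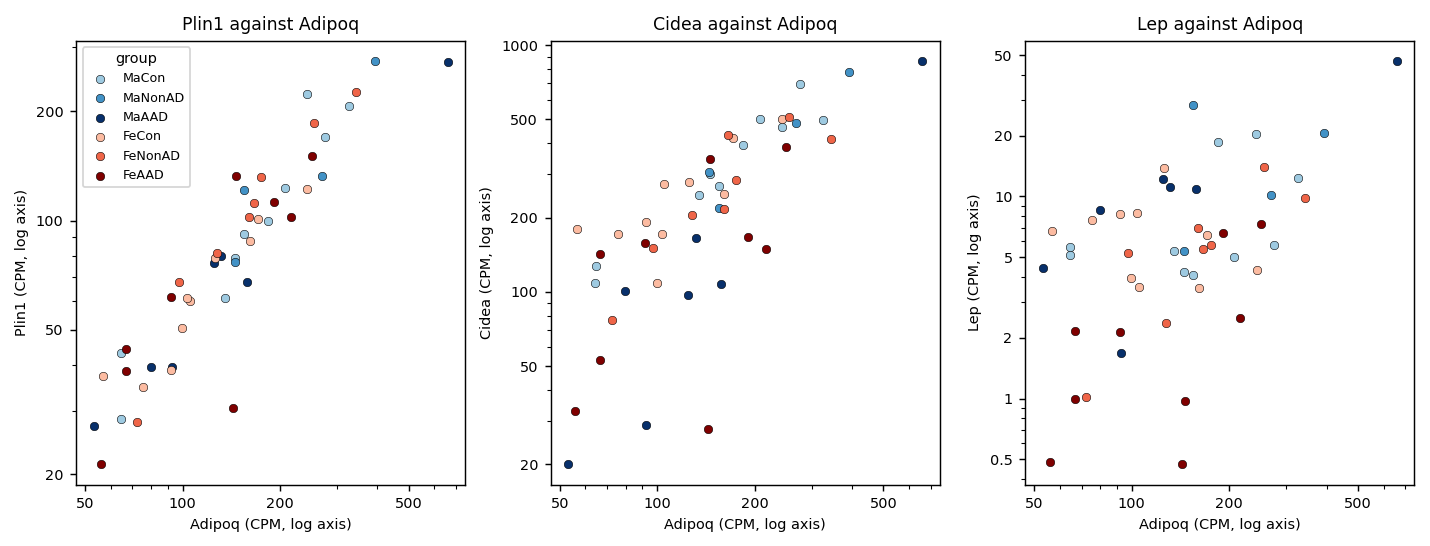
Plin1, Cidea and Lep against Adipoq in 48 libraries, both axes in CPM on log scales, with 1 point per library colored by group. Plin1 follows Adipoq most closely (within-group r = 0.922), Cidea less so (0.813) and Lep least (0.573), and most FeAAD points lie at the bottom of the Lep panel.

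Other genes of fat storage were read against the same shares of all tested genes, 12.7%, 11.4%, 2.75% and 0.478%. These shares hold calls in both directions. Of the 14431 genes, 401 were called lower in FeAAD vs FeCon and 314 in MaAAD vs MaCon, and without MaAAD1 417 of 14413 in the latter. Of 28 tested genes of lipid storage, synthesis and lipolysis, 1 was called in FeAAD vs FeCon and 0 in MaAAD vs MaCon, FeNonAD vs FeCon and MaNonAD vs MaCon, with medians of 0.01, -0.12, 0.28 and 0.53. Without MaAAD1 the median for MaAAD vs MaCon was -0.53 and 6 of the 28 were called lower, Plin5, Dgat2, Pck1, Aqp7, Gpd1 and Slc2a4, with log2 fold changes from -1.53 (Dgat2, the last enzyme of triglyceride synthesis) to -1.03 (Slc2a4, the insulin-responsive glucose carrier). The gene called in FeAAD was Plin4, a droplet coat protein also found in muscle, with 869 to 2016 CPM in FeCon and 207 to 843 CPM in FeAAD, which did not overlap (log2 fold change -1.47, SE 0.18, edgeR adjusted p = 7.82e-09). For MaAAD vs MaCon, Plin4 had a log2 fold change of -0.66 with an adjusted p of 0.00498, under the fold change threshold (-0.67 without MaAAD1). Of the 12 adipogenic transcription factors, 1 was called lower in FeAAD vs FeCon and 0 in MaAAD vs MaCon. This was Klf15, which responds to glucocorticoids and fasting, at 85.8 to 352 CPM in FeCon and 8.46 to 110 CPM in FeAAD (-1.40, SE 0.27, adjusted p = 5e-05). Klf15 was called lower in MaAAD vs MaCon as well once MaAAD1 was left out (-1.05, edgeR adjusted p = 0.00618). Smooth muscle markers were also lower in AAD, with 4 of 8 called in FeAAD vs FeCon (median log2 fold change -1.01, summed level 30525 to 52189 CPM in FeCon and 13937 to 31885 in FeAAD). In MaAAD vs MaCon 5 of 8 were called lower (-1.06), and 3 of 8 without MaAAD1 (-0.93). None of these markers was at 0 in all libraries of a group. Their part in the lower values of Plin4 and Klf15, or of Rbp4, Lepr, Npy1r and Npr1 described next, was not tested.

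Of the 11 tested genes for other adipokines and adipokine receptors, 1 was called higher and 2 lower in FeAAD vs FeCon, and 1 higher and 2 lower in MaAAD vs MaCon, beside 12.7% and 11.4% of all tested genes. Without MaAAD1 the male counts were 1 higher and 3 lower, with Adig, a small protein of fat cells, added (-1.39, edgeR adjusted p = 0.00254). Apln, the peptide apelin made by fat and endothelial cells, was higher in both (log2 fold changes 2.83 and 2.43, edgeR adjusted p = 8.38e-07 and 1.69e-05) and in FeNonAD vs FeCon (1.60, 0.0114). Rbp4, the carrier of retinol, was lower in both (-1.02, 4.49e-06, and -1.07, 1.24e-05), near the fold threshold, and its call held in 12 of 19 and 14 of 17 edgeR fits with 1 library left out and was lost in MaAAD with the replicate block (-0.91). Lepr, the leptin receptor, was lower in FeAAD (-1.08, 1.72e-05; called in 17 of 19 fits with 1 library left out), with 14.9 to 24.2 CPM in FeCon and 4.55 to 17.0 CPM in FeAAD, and had a value of -0.67 in MaAAD vs MaCon. Retnla, a resistin-like gene of macrophages, was lower in MaAAD (-1.12, 0.0163), a call that held in 14 of 17 fits with 1 library left out.

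Among the 12 hormone receptors and signals of adipocytes, 2 were called higher in FeAAD vs FeCon and 2 lower in MaAAD vs MaCon, beside the same shares of 12.7% and 11.4%. Without MaAAD1 the male count was 1 lower, Npy1r (-1.04), with Npr1 at -0.95. Hcar1, the lactate receptor that restrains lipolysis in fat cells, was lowest in FeCon, at 0.711 to 5.83 CPM with a median of 1.72. The Hcar1 medians were 6.98 CPM in FeNonAD, 6.80 in FeAAD, 6.94 in MaCon, 10.8 in MaNonAD and 8.26 in MaAAD. It was higher than in FeCon in FeNonAD (2.09, edgeR adjusted p = 0.00107), FeAAD (1.89, 0.00034) and MaCon (1.96, 0.00146), comparisons that share the FeCon libraries. Hcar2, the receptor for hydroxybutyrate and niacin, was higher in FeAAD (1.87, 0.000232) and in FeNonAD (1.21, 0.0463), where the call held in only 4 of 18 edgeR fits with 1 library left out and the value was 0.84 (adjusted p = 0.191) without FeNonAD3. Npy1r and Npr1, receptors for neuropeptide Y and natriuretic peptide, were lower in MaAAD (-1.18, 7.49e-05, and -1.04, 4.51e-07), with the Npr1 call held in 12 of 17 fits with 1 library left out and lost with the replicate block (-0.95). They had values of -0.93 and -0.86 in FeAAD vs FeCon, under the fold change threshold.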

How the data were processed

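Expected counts per gene were deposited by the authors as 1 table for 48 libraries. The submitters' processing notes name RSEM 1.3.1, Bowtie2 without a version and GRCm39. Counts were rounded (4.99% of the values were not whole). They were tested in edgeR 4.0.16 (R 4.3.3) with TMM scaling, filterByExpr and robust quasi-likelihood fits of 6 group means over all libraries, with Benjamini-Hochberg adjustment over 14431 genes. Calls needed an adjusted p below 0.05 together with a log2 fold change of 1 or more in size. SEs were derived from the F statistic. Levels are CPM, counts over TMM-scaled library sizes. Groups came from the labels, and p-values measure the spread between mice. The fit was tested on simulated data, where it recovered 95% of changes of 2 on the log2 scale in FeAAD vs FeCon and 91% in MaNonAD vs MaCon among 14431 genes. The changed genes were drawn at random from all tested genes, whose median SD within groups was 0.276, against 0.798 for the members. These rates therefore do not give the power for the members, or for changes near the threshold of 1. Alternatives were DESeq2 1.42.0, its size factors, no filter, no fold minimum, the groups compared alone, the replicate block and each library left out (the leave-out of most libraries was added after seeing the data). Lengths and promoters came from GRCm38 annotation by symbol, and TPM were computed from CPM and the longest coding transcript. Named genes were the members, called genes of the lists, and the nearest genes by correlation. Members and lists were chosen with earlier results of these data known.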

Additional observations from a re-analysis of the deposited data

Results flagged for a closer look

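In 16 of 60 sets of values (10 genes in 6 groups), the highest library lay further from the next than Dixon's 95% limit allows. Dixon's limit is set for normal values, where chance gives about 1 such set in 20. It was applied here to CPM and not to their logarithms, and all the values found were the highest of their group. How often chance gives such a set in these data was not measured, and the genes are not independent of each other. MaAAD1 gave 9 of the 16, with Adipoq at 659 CPM, Lep at 46.8, Cfd at 2979, Retn at 75.0, Plin1 at 273, Lipe at 605, Pnpla2 at 1889, Fabp4 at 3095 and Lpl at 1763 CPM, where the next MaAAD library had 158, 12.2, 576, 19.8, 79.8, 195, 490, 713 and 531 CPM. FeCon8 was far above the other FeCon libraries for Lipe (332 CPM), Cd36 (451 CPM) and Lpl (1119 CPM). FeNonAD3 was so for Cfd (1325 CPM) and Retn (36.1 CPM), MaCon6 for Cfd (1487 CPM) and FeCon5 for Lep (13.8 CPM). Causes were not tested.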

How the results depend on the processing

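Lep in FeAAD vs FeCon was called under DESeq2, its size factors, no filter, the groups compared alone and the replicate block, and no other count of members called moved under these alternatives except in MaAAD vs FeAAD, which held 1 (Lep) with DESeq2. With 1 library left out, the number of members called ran from 0 to 1 in FeAAD vs FeCon, FeAAD vs FeNonAD, MaAAD vs MaCon and MaAAD vs FeAAD, from 0 to 3 in MaAAD vs MaNonAD, and was 0 in the rest. Replicate numbers were not treated as pairs in the main fit. In no comparison did every pair of same-numbered libraries correlate above 0.1 (mean r -0.07 to 0.16), a rule that cannot exclude pairing of some libraries. The highest r of a pair was 0.47, in MaAAD vs FeAAD. The replicate block, which uses the libraries with shared numbers, changed no count of members called. Over all genes the block gave 0 calls in FeAAD vs FeNonAD and 1 in MaNonAD vs MaCon, against 730 and 141 for the groups compared alone. Of the other called genes named in comparisons with controls or between control groups, Rbp4 (-0.91) and Npr1 (-0.95) in MaAAD vs MaCon were below the fold threshold with the block, and Hcar2 in FeNonAD vs FeCon missed the test without a filter (adjusted p = 0.0534). With 1 library left out, calls were lost through the fold threshold alone for Rbp4 in FeAAD vs FeCon (12 of 19 fits called; lost without FeCon7, FeCon9, FeAAD2, FeAAD5, FeAAD6, FeAAD7 or FeAAD9, lowest in size -0.93) and in MaAAD vs MaCon (14 of 17; MaCon5, MaCon10 or MaAAD7, -0.91), Lepr in FeAAD vs FeCon (17 of 19; FeAAD5 or FeAAD9, -0.98), and Npr1 (12 of 17; MaCon3, MaCon9, MaCon10, MaAAD1 or MaAAD7, -0.95) and Retnla (14 of 17; MaCon4, MaAAD3 or MaAAD7, -0.93) in MaAAD vs MaCon. Apln, Plin4, Klf15, Hcar1 and Npy1r, and Hcar2 in FeAAD vs FeCon, were called in every such fit of the comparisons with controls that called them with all libraries in. Of 660 log2 fold changes under the alternatives other than leaving out 1 library, 19 changed sign, none of them called. These were, with the replicate block, -0.46 (Adipoq), -0.18 (Cfd), -0.46 (Fabp4) and -0.18 (Lpl) in MaAAD vs MaCon, -0.16 (Cfd) in MaAAD vs MaNonAD, -0.0023 (Plin1) in FeAAD vs FeCon, -0.034 (Plin1), -0.0072 (Fabp4), -0.013 (Cd36) and -0.13 (Lpl) in MaAAD vs FeAAD, and 0.033 (Cd36) and 0.048 (Lpl) in the sex difference in the AAD response. Lpl in that sex difference was also 0.021 with DESeq2, 0.021 with its size factors, 0.026 without a filter and 0.044 with the groups compared alone. In MaAAD vs MaCon, Lipe was 0.012 and Cd36 0.0012 without a filter, and Lipe 0.0028 with the groups compared alone. Of 2120 values with 1 library left out, 149 changed sign, in 45 results of at most 0.66 in size. Their ranges in MaAAD vs MaCon were -0.42 to 0.19 (Cd36), -0.62 to 0.18 (Lipe), -0.74 to 0.27 (Adipoq), -0.070 to 0.89 (Lep), -0.44 to 0.75 (Cfd), -0.023 to 0.79 (Retn), -0.66 to 0.34 (Fabp4) and -0.33 to 0.49 (Lpl). In MaAAD vs MaNonAD they were -0.999 to 0.18 (Lep), -0.84 to 0.48 (Cfd) and -0.40 to 0.40 (Retn). For MaAAD vs FeAAD they were -0.36 to 0.65 (Adipoq), -0.27 to 0.83 (Cfd), -0.49 to 0.36 (Plin1), -0.33 to 0.47 (Lipe), -0.36 to 0.54 (Pnpla2), -0.49 to 0.51 (Fabp4), -0.22 to 0.39 (Cd36) and -0.51 to 0.32 (Lpl). FeNonAD vs FeCon gave -0.18 to 0.095 (Pnpla2), -0.16 to 0.15 (Retn), -0.34 to 0.12 (Lep) and -0.16 to 0.22 (Cfd), FeAAD vs FeCon -0.19 to 0.10 (Cfd), -0.28 to 0.041 (Lipe), -0.013 to 0.31 (Adipoq) and -0.11 to 0.29 (Cd36), and FeAAD vs FeNonAD -0.32 to 0.13 (Cfd) and -0.18 to 0.11 (Fabp4). MaCon vs FeCon gave -0.013 to 0.40 (Lpl), -0.12 to 0.25 (Cfd) and -0.26 to 0.029 (Retn), and MaNonAD vs FeNonAD -0.064 to 0.59 (Plin1). The sex difference in the NonAD response gave -0.28 to 0.14 (Cd36), -0.40 to 0.13 (Adipoq), -0.12 to 0.54 (Cfd), -0.0084 to 0.49 (Lipe) and -0.10 to 0.44 (Lpl), and that in the AAD response -0.62 to 0.20 (Lpl), -0.84 to 0.17 (Fabp4), -0.49 to 0.11 (Cd36), -0.90 to 0.11 (Adipoq), -0.41 to 0.78 (Cfd), -0.52 to 0.28 (Lipe) and -0.48 to 0.42 (Pnpla2). The cause of these changes was not tested.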
